A study of Mus musculus with 12 samples.

Results

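The genes that separated a MEK1/2 inhibitor from a PI3K p110δ inhibitor were read from mRNA of mouse cytotoxic T lymphocytes (CTL) stimulated through their T cell receptor (TCR) for 4 h. The comparison took the 3 cultures labelled as stimulated with the MEK inhibitor PD184252 at 2 µM (MEKi cultures) and the 3 labelled as stimulated with the p110δ inhibitor IC87114 at 10 µM (PI3Kdi cultures), so 6 of the 12 samples of the series. The other 6 samples were 3 cultures stimulated without inhibitor (TCR cultures) and 3 unstimulated cultures, and they serve here to place each gene. All 4 groups were CTL of P14 mice, whose CD8+ T cells carry a transgenic TCR for the gp33 peptide. Cells were activated for 48 h with peptide, IL-2 and IL-12, expanded in IL-2, and restimulated with gp33 peptide at 100 ng/mL, and IL-2 at 20 ng/mL was present in every group, the unstimulated one included. The 3 cultures of a group were separate biological replicates. One transgenic receptor, 1 dose of each inhibitor and 1 time point were measured.

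MEK1 and MEK2 phosphorylate and activate the kinases ERK1 and ERK2, which switch on immediate early genes through ternary complex, ETS and AP-1 factors, and which induce phosphatases and Sprouty proteins that shut the pathway down again. The p110δ catalytic subunit of PI3K makes the membrane lipid PIP3 in leukocytes, which activates AKT and keeps FOXO transcription factors out of the nucleus. In CD8+ T cells both pathways lie downstream of the TCR, and both feed cytokine, chemokine and receptor gene expression in effector cells.

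Values are FPKM (fragments scaled to library size and exon length, so a level per length), listed for 11022 genes. The read totals are not in the table used here, so the depth behind a value is unknown. The 3 cultures within each group correlated at 0.9925 to 0.9946 (log2 scale, across genes). On the second principal component, which held 10.15% of the variance, the MEKi cultures lay at -28.14 to -24.42 and the PI3Kdi cultures at 12.35 to 13.5. The summed FPKM ran from 524343 to 539350 in MEKi cultures and from 549897 to 585849 in PI3Kdi cultures. Of 10 CD8 T cell markers sought, 7 were in the table, and none of 11 B cell markers and 2 of 21 myeloid markers were. The CD8 markers moved with the groups: 4 of the 7 were higher with MEKi at any size and none lower, with a median log2 difference of 0.31 and summed FPKM of 2962 to 3023 with MEKi and 2377 to 2561 with PI3Kdi, and the part of this in the results was not tested. The 2 myeloid markers summed to 9.54 to 11.5 and 7.9 to 9.95.

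A gene was called when limma gave a Benjamini-Hochberg adjusted p under 0.05 and the difference exceeded 2-fold, on log2(FPKM + 0.1). By this rule 153 genes, or 1.39%, were higher with MEKi than with PI3Kdi and 188 genes, or 1.71%, were lower. At any size of difference, 1595 genes (14.5%) were higher and 1590 (14.4%) were lower. In both directions together 3.09% of genes were called past 2-fold. These are the shares to set beside the list counts below. The median difference over all genes was -0.006. A log2 difference on this scale is always MEKi minus PI3Kdi unless another pair is named, and it understates the fold of genes under about 1 FPKM. Triplets give cultures 1 to 3, MEKi first, the error after a log2 difference is its SE, and the error after an FPKM mean is the SD of 3 cultures. In whole cultures, fewer cells that express a gene and less RNA per cell cannot be told apart. A called gene was picked for a large difference against its spread, so cultures that do not overlap are no separate support.

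Most genes that were lower with MEKi were genes that peptide had raised. TCR against unstimulated shares no sample with the inhibitor comparison, and it raised 978 genes (8.87% of all genes) and lowered 1224 (11.1%). Of the 188 genes lower with MEKi, 115 (61.2%) were raised by peptide and 18 (9.57%) were lowered. Of the 153 genes higher with MEKi, 56 (36.6%) were raised and 31 (20.3%) were lowered. Both shares of peptide-raised genes stand above the 8.87% of all genes, and that of the lower set is the larger. Within the higher set the order of raised and lowered genes depended on the processing, with 26.9% raised and 31% lowered when samples were scaled to a common FPKM sum, and 35.5% and 44.7% with no fold threshold. Those settings were applied to the peptide comparison too, and the all-gene shares under them are not given here. The 8.87% and 11.1% above are therefore not their baseline.

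The same 2 sets can be placed against the uninhibited cells, with the caution that both inhibitor comparisons use the same 3 TCR cultures. The 188 lower genes had a median log2 difference of -1.43 in MEKi against TCR and 0.06 in PI3Kdi against TCR. The 153 higher genes had medians of 0.76 in MEKi against TCR and -0.61 in PI3Kdi against TCR. In the table as a whole, MEKi against TCR called 108 genes higher (0.98%) and 277 lower (2.51%), and PI3Kdi against TCR called 55 higher (0.499%) and 152 lower (1.38%). By its median the lower set lay close to the TCR level with PI3Kdi, and the higher set lay above that level with MEKi and below it with PI3Kdi.

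**Figure D1:**
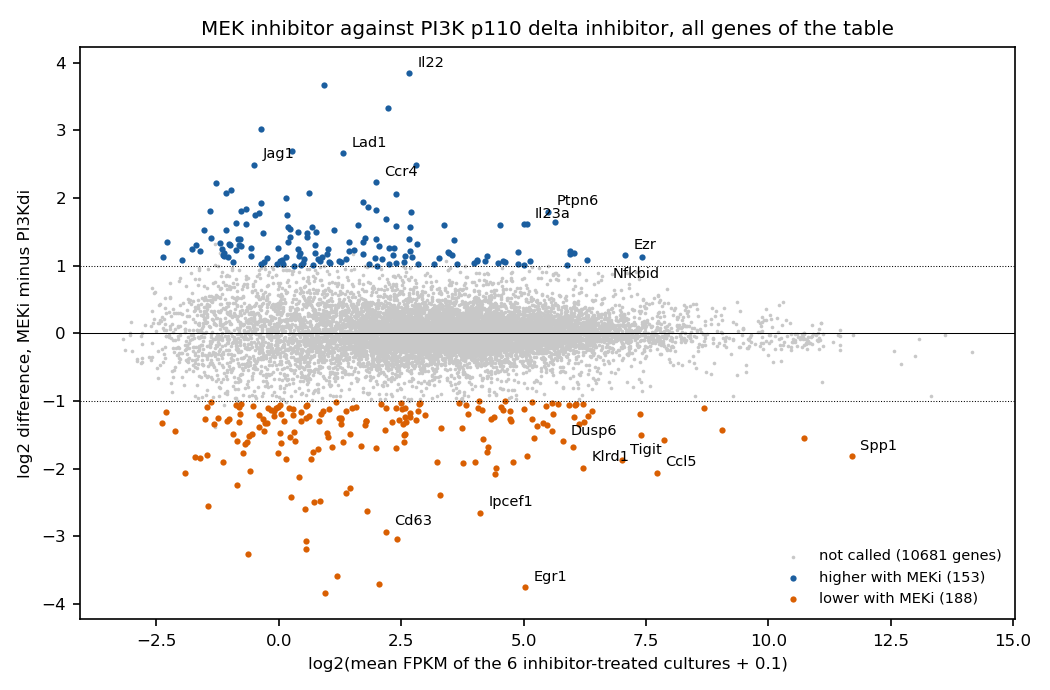
Each point is 1 of the 11022 genes, with log2 of its mean FPKM over the 6 inhibitor-treated cultures plus 0.1 on the x axis and the log2 difference, MEKi minus PI3Kdi, on the y axis. The 153 genes called higher with MEKi and the 188 called lower are coloured, dotted lines mark a 2-fold difference, and among the called genes Egr1, Ccl5 and Spp1 lie far below zero at high levels, while Il22 lies far above zero at a lower level.

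Several inhibitors of the MAPK pathway itself were lower with MEKi and near the TCR level with PI3Kdi. Of 17 DUSP, Sprouty and SPRED genes in the table, 5 were called lower with MEKi and none higher, against 1.71% lower over all genes, and at any size 11 were lower and 1 higher, or 9 and 3 with samples scaled to a common FPKM sum. The member that was higher was Dusp16, a phosphatase for the stress kinases JNK and p38, with 5.31, 5.63 and 6.51 FPKM with MEKi and 4.03, 4.41 and 5.04 with PI3Kdi (0.37, adjusted p = 0.042). In MEKi against TCR, 6 of the 17 were called lower, and in PI3Kdi against TCR none was called in either direction. Dusp6 (chromosome 10, 99263231 to 99267489), a cytoplasmic phosphatase that is selective for ERK, had 22.7, 33.5 and 27.6 FPKM in the MEKi cultures and 82.4, 82.4 and 85.2 in the PI3Kdi cultures. The groups did not overlap, the difference was -1.59 ± 0.10 on the log2 scale (SE, adjusted p = 3.0e-08), and the PI3Kdi values lay at the TCR level of 86 ± 5.06 (SD, n = 3). Dusp6 was also at 87.9 ± 0.85 in unstimulated cells, and TCR against unstimulated did not pass the test (-0.03, adjusted p = 0.77).

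Dusp2, a nuclear phosphatase that peptide raised, had 81.4, 96.6 and 87.3 FPKM with MEKi and 268, 233 and 247 with PI3Kdi, against 285 ± 22.5 with TCR alone (-1.5 ± 0.09, adjusted p = 2.1e-08). Dusp5, a nuclear anchor and phosphatase for ERK with 22.1% of its exon bases overlapped on the other strand, had 95.3, 116 and 94.5 FPKM with MEKi and 235, 222 and 239.6 with PI3Kdi. Here the 2 drugs stood on either side of the TCR level of 173 ± 16.5, at -0.76 with MEKi (adjusted p = 5.6e-06) and 0.43 with PI3Kdi (adjusted p = 0.0014). Spry1, a Sprouty adaptor that restrains receptor signalling to Ras (24.4% overlapped on the other strand), had 14.5, 16.7 and 13.4 FPKM with MEKi and 53.9, 52.7 and 49.8 with PI3Kdi (-1.81 ± 0.18, adjusted p = 4.1e-06). Spry1 was nearly silent before peptide, at 0.28 ± 0.12, and Spry4 moved the same way at a lower level (-1.11, adjusted p = 0.0012). Spred1 (-0.87), Spred2 (-0.85) and Spry2 (-0.50) passed the test below 2-fold. Dusp1 (0.21, adjusted p = 0.13) and Dusp10 (0.39, adjusted p = 0.052) did not pass it, and Dusp4 was lower by a small step (-0.35, adjusted p = 0.02).

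Among the EGR zinc finger factors and their NAB co-repressors, 2 of 5 genes were called lower with MEKi and none higher. Egr1, the classical serum-responsive factor, had 3.76, 5.51 and 4.13 FPKM with MEKi and 55.9, 60.1 and 66.4 with PI3Kdi. Their difference was -3.75 ± 0.12 (adjusted p = 1.4e-10). The MEKi values lay below even the unstimulated level of 37.2 ± 2.29 (SD, n = 3), and the PI3Kdi values lay between that and the TCR level of 87.5 ± 10.5. Egr2, which restrains T cell responses, had 25, 37.8 and 29.4 FPKM with MEKi and 86.9, 102 and 103 with PI3Kdi (-1.67 ± 0.11, adjusted p = 8.0e-08), against 172 ± 7.88 with TCR alone. Egr2 was below the TCR level with each drug, at -2.50 with MEKi (adjusted p = 1.6e-09) and -0.82 with PI3Kdi (adjusted p = 1.3e-04). Egr3 had 26.8, 43.3 and 35.6 with MEKi and 40.3, 50.5 and 67.1 with PI3Kdi, ranges that overlapped (-0.57, adjusted p = 0.083, or 0.0169 with the replicate number as a block). Nab2 was lower (-0.47) and Nab1 higher (0.48) with MEKi, both below 2-fold.

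The AP-1, BATF and MAF factors did not move as a block. Of 15, 1 was called lower with MEKi and 2 higher. Fosb, a partner of Jun at AP-1 sites, had 0.57, 0.55 and 0.61 FPKM with MEKi and 1.88, 2.54 and 2.74 with PI3Kdi (-1.86 ± 0.21, adjusted p = 1.2e-05), and Fos (-0.92, adjusted p = 0.0051) and Fosl1 (-0.58, adjusted p = 0.0081) were lower below 2-fold. Jun, their partner, differed by 0.10 (adjusted p = 0.3). On the other side, Batf3, which pairs with Jun proteins, had 116, 100.4 and 100.2 FPKM with MEKi and 66.4, 42.5 and 42.5 with PI3Kdi (1.09 ± 0.14, adjusted p = 4.3e-05), and Jdp2, a repressor of AP-1 sites, had 12.2, 12 and 11.7 against 5.42, 6.28 and 5.77 (1.03). Batf was higher by 0.79 (adjusted p = 4.5e-06). The 3 FOS family members named were lower with MEKi, and Batf, Batf3 and Jdp2 were higher.

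Of 28 other immediate early, ETS and SRF genes, 4 were called lower with MEKi and none higher. Plk2, a polo-like kinase, had 7.24, 7.54 and 6.8 FPKM with MEKi and 18.3, 18.7 and 20.6 with PI3Kdi (-1.40). Arc, which forms RNA-carrying capsids in neurons, had 2.12, 1.95 and 1.65 against 4.61, 4.79 and 4.99, and Phlda1 had 15, 16.9 and 17 against 32.5, 31.1 and 34.7, with 33% of its exon bases overlapped by a gene on the other strand. Plk2 was below the TCR level of 43.9 ± 1.41 with each drug, at -2.60 with MEKi and -1.19 with PI3Kdi. The ETS factor Etv5, a known ERK target in other tissues, had 1.13, 1.67 and 1.23 against 3.82, 4.36 and 3.59 FPKM (-1.49 ± 0.17, adjusted p = 1.3e-05), and 24.5% of the 50-base words of its transcripts also occur in other genes. Of the 3 NR4A orphan receptors, which TCR raised, none was called. Nr4a1 (-0.54, adjusted p = 0.0024) and Nr4a2 (-0.80, adjusted p = 2.7e-05) were lower with MEKi below 2-fold, and Nr4a3 was not (-0.05, adjusted p = 0.77).

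**Figure D2:**
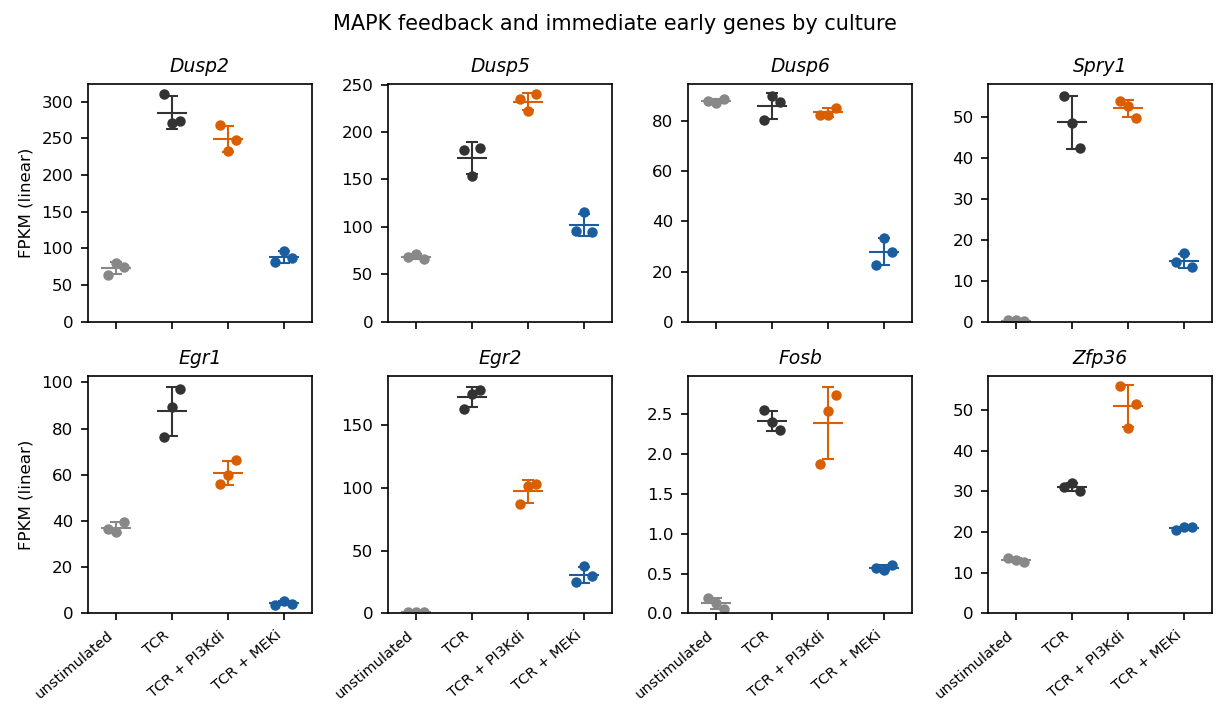
FPKM on a linear axis from 0 in each culture of the 4 groups, with points for the 3 cultures and a bar at the mean with whiskers of 1 SD, for MAPK feedback and immediate early genes. In every panel the 3 MEKi cultures lie below the 3 PI3Kdi cultures, and Egr1 with MEKi, at 3.76 to 5.51, lies below the unstimulated cultures.

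Dusp5, Egr2 and Zfp36 carry a CArG box, the site of serum response factor, in the stretch before their start, and Srxn1 carries a repeated AP-1 site, so they are shown here. RefSeq promoters (250 bases before to 50 after the start, GRCm38.p6) were found for 132 of the 188 lower genes, 106 of the 153 higher genes and 8333 genes of the table. A CArG box on either strand stood in 5 of the 132 (3.79%), 2 of the 106 (1.89%) and 121 of the 8333 (1.45%). The AP-1 site TGACTCA or its complement TGAGTCA stood in 12.9% of the lower, 6.6% of the higher and 4.36% of all genes. The ETS core CCGGAAG stood in 6.06%, 4.72% and 21.8%, the EGR core GTGGGCG in 13.6%, 19.8% and 16.7%, the FOXO site GTAAACA in 2.27%, 2.83% and 3.08%, and the CRE TGACGTCA in 3.79%, 0.943% and 3.83%. These shares describe windows of 300 bases, with no test, and genes with several starts had more windows (1.45 a gene in the lower set, 1.27 over all genes).
The 250 bases before the start of Dusp5, Egr2, Zfp36 and Srxn1 follow, 5′ to 3′ on the strand of the gene, with capitals for CArG, ETS or AP-1 letters. They were chosen after their values were seen, and no marked motif overlaps another.
Dusp5, chr19:53528895-53529144, + strand: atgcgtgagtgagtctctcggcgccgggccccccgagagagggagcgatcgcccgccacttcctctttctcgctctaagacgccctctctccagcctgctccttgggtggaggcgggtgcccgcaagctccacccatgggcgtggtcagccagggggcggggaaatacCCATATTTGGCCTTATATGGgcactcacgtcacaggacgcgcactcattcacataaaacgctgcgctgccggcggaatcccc
Egr2, chr10:67537619-67537868, + strand: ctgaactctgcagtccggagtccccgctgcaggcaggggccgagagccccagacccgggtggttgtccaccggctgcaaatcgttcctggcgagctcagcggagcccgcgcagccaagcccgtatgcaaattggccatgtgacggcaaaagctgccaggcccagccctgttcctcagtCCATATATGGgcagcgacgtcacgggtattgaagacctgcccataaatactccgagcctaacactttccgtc
Zfp36, chr7:28379229-28379478, - strand: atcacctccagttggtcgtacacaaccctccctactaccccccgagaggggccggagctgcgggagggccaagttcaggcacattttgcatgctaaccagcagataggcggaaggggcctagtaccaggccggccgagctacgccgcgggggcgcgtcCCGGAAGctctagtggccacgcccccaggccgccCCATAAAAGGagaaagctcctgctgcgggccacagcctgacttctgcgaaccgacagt
Srxn1, chr2:152105274-152105523, + strand: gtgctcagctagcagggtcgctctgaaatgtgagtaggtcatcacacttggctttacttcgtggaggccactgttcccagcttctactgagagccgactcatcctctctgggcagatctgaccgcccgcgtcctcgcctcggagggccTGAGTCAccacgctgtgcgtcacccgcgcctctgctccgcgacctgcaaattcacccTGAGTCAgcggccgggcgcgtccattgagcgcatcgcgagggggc
Dusp5 holds 2 CArG boxes side by side, from 82 to 73 and from 72 to 63 bases before the start. At the Egr2 start shown the box lies 72 to 63 bases before it. Other annotated Egr2 starts place this same box at 73 to 64 and at 133 to 124 bases before, and at 1 more start a different CArG box lies at 72 to 63. The box of Zfp36 lies 58 to 49 bases before, after an ETS core at 92 to 86. Srxn1 holds the AP-1 site 2 times, at 102 to 96 and at 45 to 39 bases before the start.

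Zfp36 encodes tristetraprolin, which binds AU-rich elements and speeds decay of cytokine mRNA. It had 20.6, 21.1 and 21.3 FPKM with MEKi and 55.9, 45.6 and 51.4 with PI3Kdi (-1.27 ± 0.07, adjusted p = 1.6e-08). The TCR level of 31.1 ± 1.02 lay between, with -0.56 for MEKi (adjusted p = 2.3e-05) and 0.71 for PI3Kdi (adjusted p = 6.7e-06). Zfp36 was the single called member of 16 mRNA decay genes, of which 2 were higher and 7 lower at any size, a split that turned to 5 higher and 2 lower when samples were scaled to a common FPKM sum. Srxn1, which reactivates oxidised peroxiredoxins, had 18.9, 18.5 and 18.9 FPKM with MEKi and 59, 51 and 54.5 with PI3Kdi (-1.54 ± 0.07, adjusted p = 6.2e-09), the latter near the TCR level of 63.5 ± 6.57. Rgs2, which limits G protein signalling, was the single called member of 12 RGS genes, with 9.02, 8.68 and 8.18 against 33.6, 28.9 and 26.1 FPKM (-1.76 ± 0.14, adjusted p = 4.3e-07).

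Of 34 Ras and diacylglycerol regulators, 3 were called lower with MEKi and 1 higher. Dgka, the kinase that removes the Ras activator diacylglycerol, had 36.6, 38.5 and 42.2 against 87.9, 90.5 and 97.5 (-1.23, adjusted p = 2.7e-08). Rasa3, a Ras GTPase activating protein, was at 12.5 ± 0.77 with TCR alone and reached 25.2, 24.6 and 23.1 with PI3Kdi but 11.1, 11.6 and 10.5 with MEKi (-1.13, adjusted p = 3.0e-08). Mras, a Ras relative that helps activate RAF, had 0.03, 0 and 0.08 against 0.35, 0.40 and 0.36 (-1.82, adjusted p = 1.7e-04). The exchange factor Rasgrp1, which activates Ras in answer to diacylglycerol, went the other way, with 22.7, 21.2 and 23.2 with MEKi and 8.95, 11.3 and 11.2 with PI3Kdi (1.09, adjusted p = 2.8e-07).

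The lectin receptors of NK cells, which CTL also carry and which read MHC class I or stress ligands, had the largest share called lower with MEKi of the lists counted. Of 12 in the table, 7 were called lower and none higher (58.3%, against 1.71% of all genes), with a median log2 difference of -1.27. Most of them sit together in the NK gene complex on chromosome 6. Klrd1 (CD94, chromosome 6, 129591782 to 129598775), the partner chain of NKG2 receptors, had 29, 29.3 and 31.4 FPKM with MEKi and 124, 118 and 114 with PI3Kdi (-1.98 ± 0.11, adjusted p = 2.0e-08). The TCR level of 56.7 ± 1.17 lay between them, -0.92 for MEKi (adjusted p = 2.4e-05) and 1.06 for PI3Kdi (adjusted p = 1.5e-05). Klrk1 (NKG2D, chromosome 6, 129610323 to 129623864), an activating receptor for stress ligands, had 20.8, 21.2 and 22.8 against 51.8, 56.3 and 59.9 FPKM (-1.37 ± 0.07, adjusted p = 1.4e-08), with TCR alone at 38.8 ± 3.25. Klra5, a Ly49 receptor, had 4.74, 3.54 and 3.42 with MEKi and 14.1, 13.6 and 16.7 with PI3Kdi (-1.91 ± 0.16, adjusted p = 8.3e-07), with TCR alone at 6.28 ± 0.55. Klrk1 and Klra5, too, lay below the TCR level with MEKi and above it with PI3Kdi, each past the test.

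Klrc1 (NKG2A), the inhibitory partner of Klrd1, had 6.73, 9.53 and 11 FPKM with MEKi and 21.2, 32.7 and 34.7 with PI3Kdi (-1.69 ± 0.25, adjusted p = 1.7e-04). Klrc2 (-1.29), Klrc3 (-1.25) and Klre1 (-1.52) were called lower at levels of 0.42 to 3.79 FPKM. The NKG2 genes are close copies, in that 38.6% of the 50-base words of Klrc1, 16.3% of those of Klrc2 and 36.3% of those of Klrc3 occur in other genes, so how reads were divided among them is uncertain. Klrg1, a receptor for cadherins, was at 0.56, 2.07 and 2.01 with MEKi and 0.88, 1.11 and 1.12 with PI3Kdi (0.35, adjusted p = 0.53), with ranges that overlapped. Of 6 NK cell markers sought, 3 were in the table, and their summed FPKM ran from 110 to 125 with MEKi and from 155 to 163 with PI3Kdi, while Ncr1, Tyrobp and Klra8 had no value in the table used here. Whether NK cells had a part in these values was not tested.

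Of 32 receptors of the CD28 family and other costimulatory or inhibitory receptors, 5 were called lower with MEKi and 2 higher, and at any size 14 were lower and 6 higher. Tigit, an inhibitory receptor for CD155, had 58.4, 55.9 and 51.4 FPKM with MEKi and 213, 199.8 and 194 with PI3Kdi (-1.87 ± 0.07, adjusted p = 5.1e-10). TCR alone gave 121 ± 11.7, so the PI3Kdi cultures stood above it (0.75) and the MEKi cultures below (-1.13). Its activating counterpart at the same ligand, Cd226, went the opposite way, with 9.69, 9.2 and 9.59 FPKM with MEKi and 2.53, 3.21 and 3.71 with PI3Kdi (1.58 ± 0.13, adjusted p = 5.5e-07), and Cd96, another receptor for CD155, was higher with MEKi by 0.80 (adjusted p = 4.3e-08). Cd160, a receptor for HVEM, had 44.5, 55.1 and 45.8 against 103, 95.1 and 99.9 FPKM, both below the TCR level of 187 ± 3.55 (-1.04, adjusted p = 2.7e-07). Cd28 itself (-1.23) and Cd101 (-1.30), an inhibitory receptor, were also called lower with MEKi, and Cd200, whose receptor restrains myeloid cells, was called higher at 2.27, 1.6 and 2.33 against 0.60, 0.60 and 0.94 (1.42, adjusted p = 1.1e-04). Slamf1, a self-ligand of lymphocytes, had 13.6, 16.6 and 16 against 33.2, 41 and 39.9 (-1.30, adjusted p = 4.7e-06). Lag3 was lower with MEKi below 2-fold (149.9, 143 and 128 against 276, 216 and 232, -0.78, adjusted p = 5.6e-05), and Havcr2 likewise (-0.46). Pdcd1 (0.10, adjusted p = 0.61), Icos (-0.12, adjusted p = 0.41) and Ctla4 (-0.46, adjusted p = 0.055) did not pass the test between the drugs, but Ctla4 did with the replicate block (adjusted p = 0.000523).

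**Figure D3:**
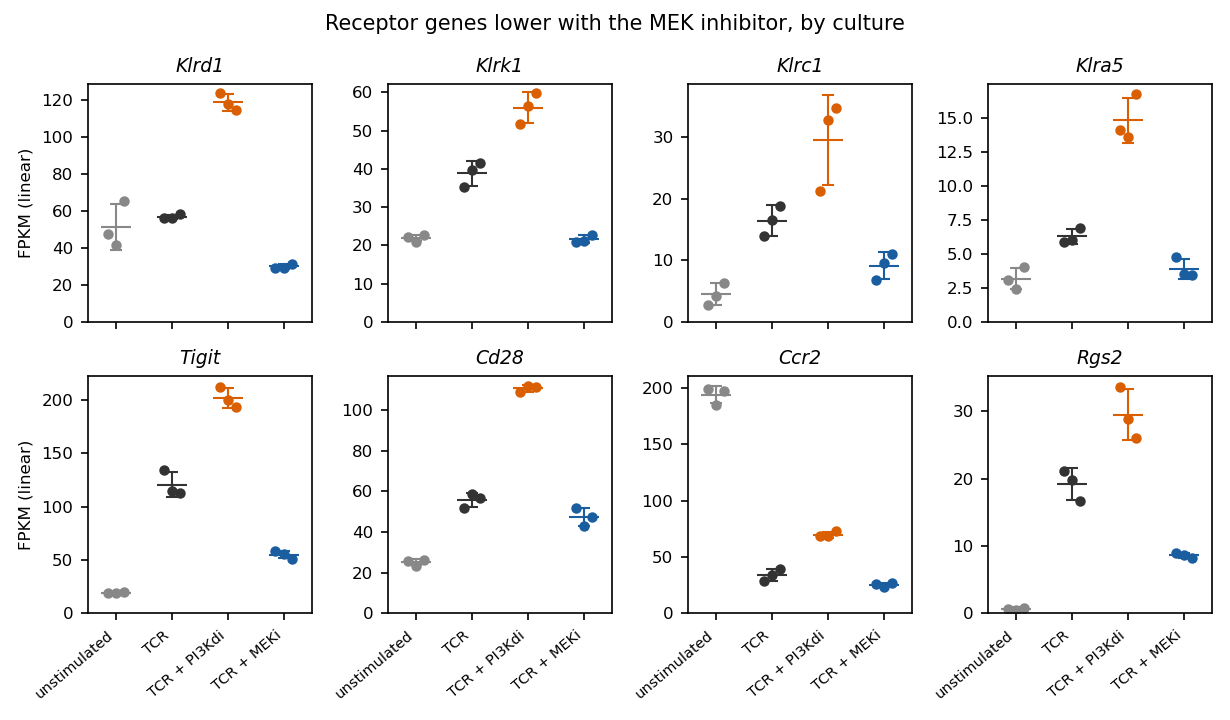
FPKM on a linear axis from 0 in each culture of the 4 groups, with points for the 3 cultures and a bar at the mean with whiskers of 1 SD, for receptor genes and Rgs2. In all 8 panels the PI3Kdi cultures lie above the MEKi cultures, and for Klrd1, Klrk1, Klra5 and Tigit the TCR cultures lie between them.

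Chemokine genes, whose products CTL secrete within hours of TCR engagement, differed in both directions, with more of them lower with MEKi. Of 11 in the table, 3 were called lower with MEKi and 1 higher. At any size 6 were lower and 2 higher (54.5% and 18.2%, against 14.4% and 14.5% of all genes), with a median log2 difference of -0.33. Ccl5 (chromosome 11, 83525778 to 83530518), a chemoattractant for T cells and monocytes, had 70.9, 90.9 and 85.1 FPKM with MEKi and 379.6, 311 and 336 with PI3Kdi (-2.06 ± 0.11, adjusted p = 1.6e-08). From a TCR level of 499.6 ± 61.3, the log2 difference was -0.54 with PI3Kdi and -2.60 with MEKi, each past the test. Xcl1, which draws dendritic cells that present to CD8+ T cells, was called lower (-1.55), and so was Ccl22, a ligand of CCR4, at 0.07, 0 and 0 against 0.11, 0.11 and 0.33 (-1.16, adjusted p = 0.012), a call that was lost without PI3Kdi culture 3 (-0.82, adjusted p = 0.0593). Ccl3 was lower with MEKi just under 2-fold (6564, 8154 and 6474 against 13936, 13681 and 12538, -0.93, adjusted p = 4.3e-05), and Ccl1 by -0.72 (adjusted p = 0.0029). Ccl4, the neighbour of Ccl3 on chromosome 11, had 6803, 8233 and 6587 against 9578, 8924 and 8533, ranges that did not overlap but differed by only -0.33 (adjusted p = 0.017), a sign that turned with quantile normalisation. Ccl9 did not pass the test (-0.17, adjusted p = 0.15) and was below the TCR level of 121 ± 7.53 with each drug (-1.69 with MEKi, -1.52 with PI3Kdi). Cxcl16, the ligand of Cxcr6, was the member called higher, at 0.47, 0.77 and 0.71 with MEKi and 0.20, 0.08 and 0 with PI3Kdi (2.07, adjusted p = 2.4e-04), levels below 1 FPKM.

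Chemokine receptors showed both directions. Ccr2, the receptor for CCL2, had 25.8, 23.9 and 27.1 FPKM with MEKi and 68.3, 68.4 and 73 with PI3Kdi (-1.45 ± 0.09, adjusted p = 3.5e-08), Cxcr6 had 50.9, 41.5 and 36.9 against 129, 106 and 86 (-1.30), and Ccr1 had 1.48, 1.48 and 1.04 against 3.6, 3.49 and 2.87 (-1.26). Peptide had lowered Ccr2 from 194 ± 7.6 to 34.2 ± 5.53, and the PI3Kdi cultures kept more of it. Higher with MEKi were Ccr4, a receptor for CCL17 and CCL22, at 8.97, 4.16 and 6.24 against 1.69, 0.87 and 1.25 (2.24 ± 0.28, adjusted p = 3.6e-05), and P2ry14, a receptor for UDP-glucose, at 77.7, 65.5 and 83.7 against 23, 24.4 and 24.8 (1.64 ± 0.09, adjusted p = 2.0e-08). Peptide had lowered P2ry14 from 159 ± 11.6 to 26.1 ± 3.18, and PI3Kdi left it at that level (-0.11, adjusted p = 0.41).

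Of 16 growth factors and other secreted mediators, 2 were called in each direction. Wnt1 and Fgf18, given below, are outside that list and were chosen after their values were seen. Spp1 (osteopontin) had 1249.9, 1581 and 1610.0 FPKM with MEKi and 5099, 4994 and 5471 with PI3Kdi (-1.82 ± 0.12, adjusted p = 8.8e-08), the latter at the TCR level of 5065 ± 361. Areg, an EGF receptor ligand linked to tissue repair, had 0.95, 0.35 and 1.09 against 3.92, 4.29 and 4.24 FPKM (-2.36 ± 0.30, adjusted p = 3.3e-05), with TCR alone at 8.85 ± 0.26. Wnt1 had 0.32, 0.35 and 0.37 with MEKi and 1.6, 1.45 and 1.22 with PI3Kdi against 5.32 ± 0.20 with TCR alone, and Fgf18 had 0.23, 0.39 and 0.50 against 1.2, 1.12 and 0.86 against 4.07 ± 0.98. Both of these ligands were below the TCR level with each drug and lower with MEKi. Higher with MEKi were Tgfb3, at 0.97, 0.25 and 0.68 against 0.21, 0.15 and 0.15 (1.30, adjusted p = 0.034, lost without 4 of the 6 cultures in turn, at up to 0.146), and Pdgfa, a mitogen for mesenchymal cells with 26.1% of its exon bases overlapped on the other strand, at 1.74, 1.44 and 1.83 against 0.39, 0.40 and 0.25 (2.0, adjusted p = 0.001). Loxl2, a collagen cross-linking enzyme that shares 45% of its 50-base words with a predicted gene, had 8.13, 8.68 and 8.32 against 1.7, 1.97 and 2.14 FPKM (2.06 ± 0.11, adjusted p = 1.2e-08), the MEKi values being near the TCR level of 7.09 ± 0.34.

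The largest fall was that of Tm4sf19, a tetraspanin-like membrane protein, with 0.20, 0.17 and 0.09 FPKM with MEKi and 3.02, 3.69 and 3.71 with PI3Kdi (-3.84 ± 0.24, adjusted p = 3.0e-08). Slc27a6, a fatty acid transporter family member, had 0.34, 0.84 and 0.38 against 6.5, 7.69 and 8.45 (-3.70, adjusted p = 2.3e-08), and S100a3, a calcium-binding protein, had 0.53, 0.15 and 0.15 against 5.2, 3.54 and 3.45 (-3.59, adjusted p = 1.3e-05). Ptprn, a receptor-type phosphatase family member of secretory granules, had 0.22, 0.21 and 0.15 against 2.43, 2.43 and 2.81 (-3.18, adjusted p = 1.7e-08). Stfa2, a stefin, was listed at 0 in all 3 MEKi cultures and had 1.65, 0.24 and 1.4 with PI3Kdi, and Ceacam1, an adhesion receptor that shares 30.4% of its 50-base words with other genes, had 0.17, 0.34 and 0.47 against 2.46, 2.65 and 2 (-2.59, adjusted p = 3.0e-06). Peptide had raised all 6 genes, Slc27a6 from 2.06 FPKM and the others from under 1 FPKM. In these 6 genes the MEKi and PI3Kdi cultures did not overlap, a separation that their choice as largest falls favours.

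Several other genes lay far lower with MEKi. Ipcef1, a partner of cytohesin exchange factors, had 4.36, 5.48 and 4.16 FPKM with MEKi and 26.6, 32.2 and 30.3 with PI3Kdi (-2.65 ± 0.12, adjusted p = 3.7e-09), and the latter stood above the TCR level of 20.3 ± 2.72. Cd63, a tetraspanin of lysosomes and granules, had 0.98, 1.11 and 0.74 against 9.87, 6.16 and 7.71 (-2.93 ± 0.17, adjusted p = 2.1e-08). Spns2, the transporter that releases sphingosine 1-phosphate, had 1.37, 1.13 and 0.71 against 10.5, 7.41 and 10.1 (-3.04 ± 0.25, adjusted p = 4.7e-07). All 3 were raised by peptide. Slc45a3, a solute carrier, had 0.15, 0.24 and 0.26 against 2.45, 2.39 and 2.77, Lhfpl1 had 0.79, 1.06 and 0.80 against 6.09, 5.24 and 6.45, and Epha2, a receptor for ephrins, had 0.48, 0.48 and 0.25 against 2.7, 2.77 and 2.54. Serpinb6b, a granzyme-inhibiting serpin family member at a high level, had 283, 321 and 260.0 with MEKi and 783, 814 and 729.6 with PI3Kdi (-1.43, adjusted p = 2.2e-08), and Crtam, an adhesion receptor of activated CD8+ T cells, had 229.8, 308 and 255 against 522, 587 and 578 (-1.10, adjusted p = 4.6e-06). Gem, a small GTPase that restrains calcium channels, had 107, 144 and 106 against 363, 347 and 338 (-1.57, adjusted p = 3.0e-08). In all of these the 3 MEKi values lay below the 3 PI3Kdi values, which their choice as called genes favours. Tmc6 (-1.27) and Tmc8 (-1.26), neighbours that read in opposite directions on chromosome 11 and whose products form a zinc-regulating complex, were lower together.

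Interleukin and colony stimulating factor genes differed between the drugs in a few members. Of 23, 13 were called lower in MEKi against TCR and 15 in PI3Kdi against TCR, comparisons that share the TCR cultures, and none higher in either. Between the drugs 4 were called higher with MEKi and 1 lower. Il22, an IL-10 family cytokine that acts on epithelia, had 13.9, 10.3 and 11 FPKM with MEKi and 0.55, 0.84 and 0.78 with PI3Kdi, with TCR alone at 5.99 ± 1.75 (3.85 ± 0.20, adjusted p = 1.3e-08). It shares 41% of its 50-base words with other genes, most with Iltifb, its near-identical copy. Il23a, the p19 chain of IL-23, had 47.1, 48.3 and 55.5 with MEKi and 14.7, 16 and 18.3 with PI3Kdi (1.62 ± 0.09, adjusted p = 1.7e-08), against 78.9 ± 2.09 with TCR alone. Il21, a cytokine for B and T cells, had 5, 4.8 and 5.84 against 2.31, 1.97 and 2.87 (1.11 ± 0.15, adjusted p = 7.6e-05) against 8.35 ± 0.88, and Il6 had 2.45, 2.12 and 4.93 against 0.74, 0.74 and 1.56 (1.53 ± 0.32, adjusted p = 0.002) against 7.27 ± 2.26. So Il23a, Il21 and Il6 were below the TCR level with both drugs and lower with PI3Kdi, and only Il22 of the 4 was above it with MEKi (0.98, adjusted p = 0.0016). Il1a was the member lower with MEKi, at 0.13, 0.48 and 0.17 against 1.52, 0.46 and 0.77 (-1.48, adjusted p = 0.0064), with ranges that overlapped.

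Other effector cytokines differed by less than 2-fold between the drugs. Ifng, the interferon that activates macrophages and a gene with 25.9% of its exon bases overlapped by a predicted gene on the same strand, had 15626, 18253 and 15972 FPKM with MEKi and 21384, 19922 and 19172 with PI3Kdi (-0.28 ± 0.09, adjusted p = 0.026), and quantile normalisation removed that difference. Il2 had 33, 67.1 and 51.9 against 64.5, 84.8 and 112 against 705 ± 57.3 with TCR alone, and the drugs were not told apart (-0.81 ± 0.34, adjusted p = 0.091). Tnf (-0.44 ± 0.19, adjusted p = 0.1), Il3 (0.46 ± 0.26, adjusted p = 0.19), Il10 (-0.19 ± 0.12, adjusted p = 0.28), Lta (-0.19 ± 0.12, adjusted p = 0.24) and Cd40lg (-0.27 ± 0.13, adjusted p = 0.14) also missed the threshold, which Tnf passed with the replicate block (adjusted p = 0.0385). Csf2 was lower with MEKi by -0.57 (adjusted p = 0.0081) and Il24 higher by 0.45 (adjusted p = 0.0039). Each of these genes was below the TCR level with each drug, past the test. The granule genes Gzmb (-0.02 ± 0.09, adjusted p = 0.87) and Prf1 (-0.42 ± 0.06, adjusted p = 1.5e-04) differed by less than 2-fold.

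Among TNF family ligands 1 of 13 was called in each direction. Cd70, the ligand of CD27, had 8.74, 10.3 and 10.9 FPKM with MEKi and 2.61, 2.52 and 3.32 with PI3Kdi (1.79 ± 0.20, adjusted p = 1.3e-05), both below the TCR level of 39.4 ± 1.76. Tnfsf8 (CD30 ligand) was lower with MEKi, at 30.5, 45.1 and 43.1 against 76.9, 108 and 116 (-1.34 ± 0.16, adjusted p = 2.0e-05), from 155 ± 23.7 with TCR alone.

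Of 26 NF-κB subunits and regulators, 3 were called higher with MEKi and none lower. At any size 13 were higher and 2 lower, against 14.5% and 14.4% of all genes. Nfkbid (IκBNS, chromosome 7, 30421732 to 30428746), a nuclear IκB that tunes target choice, had 197, 268 and 236 FPKM with MEKi and 102, 105 and 112 with PI3Kdi (1.13 ± 0.09, adjusted p = 3.3e-07), from 456 ± 21.9 with TCR alone. Bcl3, another nuclear IκB, had 29.9, 33.2 and 36.1 against 18, 12.5 and 17.6 (1.05, adjusted p = 4.3e-05). Ikbke, a kinase of the interferon and NF-κB pathways, had 38.6, 31.4 and 33.5 with MEKi and 12.6, 9.64 and 11.6 with PI3Kdi (1.61 ± 0.10, adjusted p = 2.3e-08), and TCR alone lay between at 16.6 ± 0.84. Nfkbia (0.68), Nfkbie (0.97), Nfkb2 (0.53) and Relb (0.51) were higher below 2-fold. The deubiquitinating inhibitor Tnfaip3 was lower (-0.50, adjusted p = 1.9e-05), and Rela did not pass the test (-0.03, adjusted p = 0.71). Icam1, an adhesion ligand and textbook NF-κB target outside this list, was chosen after its values were seen. It had 86.4, 79.7 and 88.3 against 37.5, 35.2 and 40.4 FPKM (1.17 ± 0.06, adjusted p = 1.6e-08). No list of NF-κB targets was counted.

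Of 8 SOCS and CISH inhibitors of cytokine signalling, 1 was called higher with MEKi. Socs1, which blocks JAK kinases, had 46.3, 46.1 and 51.7 FPKM with MEKi and 18.4, 12.3 and 16.8 with PI3Kdi (1.62 ± 0.12, adjusted p = 2.6e-07). Peptide had lowered it from 79.5 ± 4.5 to 24.3 ± 3.13, and PI3Kdi cultures lay below the TCR level (-0.63, adjusted p = 0.0019) while MEKi cultures lay above it (0.99, adjusted p = 2.7e-05). Ptpn6 (SHP-1, chromosome 6, 124720707 to 124738714), the phosphatase that dampens TCR signalling, had 69.5, 65.3 and 75.1 against 20.3, 18.5 and 21.2 FPKM (1.80 ± 0.07, adjusted p = 9.3e-10), with TCR alone at 30.7 ± 2.43. It was the single called member of 38 TCR complex and proximal signalling genes (2.63%, against 3.09% of all genes). At any size 10 of the 38 were higher and 12 lower (26.3% and 31.6%, against 14.5% and 14.4% of all genes). Of 19 IRF, STAT and JAK genes none was called, but 10 were higher with MEKi at any size and 2 lower (52.6% and 10.5%). Stat3 came closest to the 2-fold limit, at 205, 204 and 205 against 105, 112 and 111 (0.91 ± 0.05, adjusted p = 2.0e-08), and Stat5b (0.67) and Tyk2 (0.64) followed, while Jak2 was lower (-0.60). Il10ra, the IL-10 receptor chain that signals through STAT3, had 32, 27.9 and 29.4 against 13.8, 15 and 14.4 (1.04, adjusted p = 3.0e-07).

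The Notch pathway had 2 of 16 members called higher with MEKi, both of them ligands. Jag1 had 1.02, 1.08 and 1.17 FPKM with MEKi and 0.11, 0.18 and 0.06 with PI3Kdi, with TCR alone at 0.40 ± 0.091 (2.49 ± 0.25, adjusted p = 3.8e-06). Dll4 stayed below 1 FPKM in these groups (0.22, 0.15 and 0.22 against 0.03, 0 and 0.02). The receptor Notch1 did not pass the test (-0.26, adjusted p = 0.086).

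**Figure D4:**
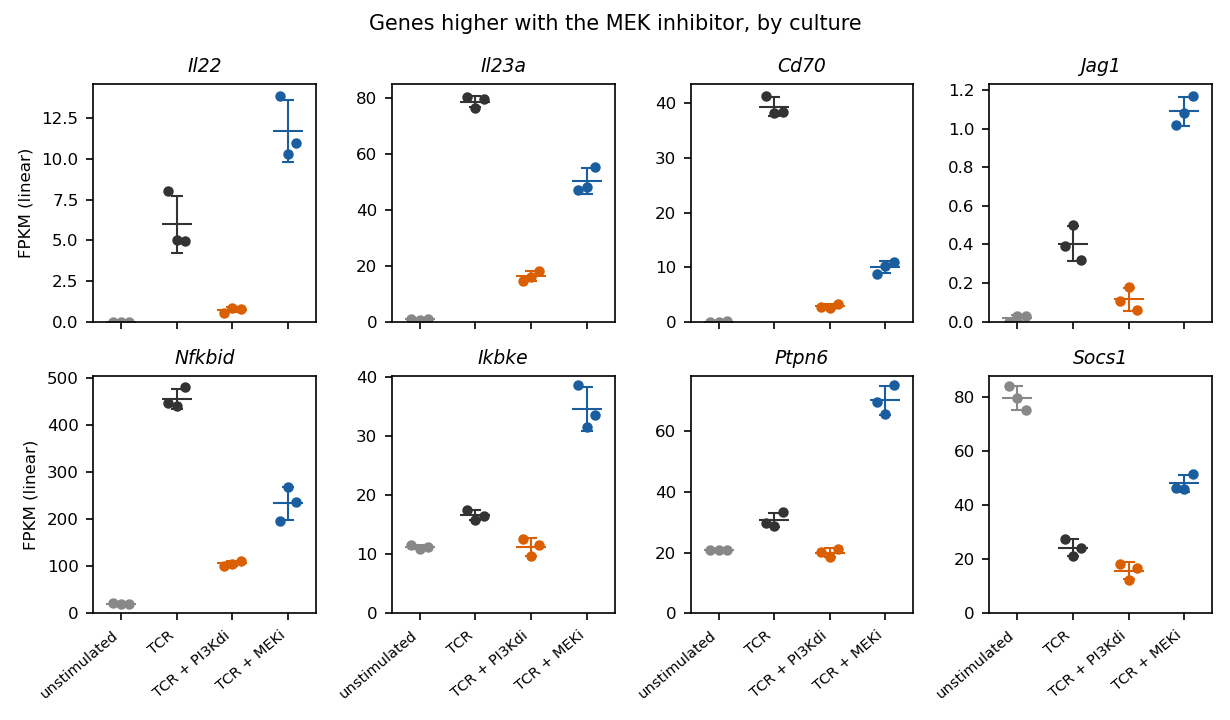
FPKM on a linear axis from 0 in each culture of the 4 groups, with points for the 3 cultures and a bar at the mean with whiskers of 1 SD, for genes called higher with MEKi than with PI3Kdi. Il22, Jag1, Ikbke, Ptpn6 and Socs1 lie above the TCR cultures with MEKi, whereas Il23a, Cd70 and Nfkbid lie below them with both drugs.

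Of 14 lymphoid homing genes that FOXO1 and KLF2 drive, 2 were called higher with MEKi and none lower, and at any size 4 were higher and 5 lower. Klf2, the zinc finger factor of quiescent and circulating T cells, had 4.47, 4.78 and 5.18 FPKM with MEKi and 2.42, 1.28 and 1.68 with PI3Kdi (1.42 ± 0.21, adjusted p = 1.2e-04), against 1.1 ± 0.27 with TCR alone. Klf3 had 2.14, 2.35 and 2.65 against 0.56, 0.79 and 1.03 (1.5 ± 0.21, adjusted p = 1.0e-04). Il7r was higher with MEKi by 0.52 (adjusted p = 0.017) and above TCR with both drugs. Ccr7 (-0.39, adjusted p = 0.065, or 0.0224 with the replicate block), Tcf7 (-0.03, adjusted p = 0.95) and S1pr1 (0.32, adjusted p = 0.47) did not pass the test between the drugs.

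Of 27 PI3K antagonists and FOXO stress targets, 1 was called in each direction between the drugs, 6 were higher in PI3Kdi against TCR and 3 higher in MEKi against TCR. Ddit4, the mTORC1 inhibitor REDD1, had 99.1, 80.3 and 92 FPKM with MEKi and 45, 35.4 and 38.2 with PI3Kdi (1.19 ± 0.09, adjusted p = 3.6e-07), the latter near the TCR level of 34.2 ± 2.62. Tbc1d4, an AKT substrate, had 0.53, 0.60 and 0.46 against 1.97, 1.87 and 1.56 (-1.59 ± 0.18, adjusted p = 1.3e-05). Trp53inp1 was higher with PI3Kdi just under 2-fold (8.27, 7.72 and 8.68 against 15, 17.4 and 15.6, -0.95, adjusted p = 8.0e-05). Pik3ip1, the membrane brake of PI3K, was above the TCR level of 0.47 ± 0.029 with each drug and did not pass the test between them (-0.08, adjusted p = 0.74). Pdcd4, a translation inhibitor outside this list, was chosen after its values were seen. It was also higher with PI3Kdi, at 3.32, 3.11 and 4.54 with MEKi and 7.63, 8.02 and 6.83 with PI3Kdi (-1.03 ± 0.12, adjusted p = 2.4e-05).

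Amino acid response genes differed by small steps in 1 direction. Of 31 ATF4 targets and tRNA synthetases, 26 were higher with MEKi at any size and none lower (83.9% against 14.5% of all genes), but 2 were called past 2-fold, and the median log2 difference was 0.31. In PI3Kdi against TCR the median of this list was -0.34 and in MEKi against TCR -0.01, so MEKi cultures sat at the TCR level and PI3Kdi cultures under it. Atf5, a stress-response factor, had 24.9, 21.8 and 28.4 FPKM with MEKi and 13, 10.7 and 11.9 with PI3Kdi (1.07 ± 0.12, adjusted p = 1.3e-05), and Nupr1, a stress-induced nuclear protein, had 39.9, 45.9 and 42.3 against 22, 20.3 and 20.9 (1.01, adjusted p = 0.0011). Trib3, a pseudokinase that curbs AKT, had 41.4, 40.4 and 41.5 against 23.6, 22.8 and 23.5 (0.82 ± 0.06, adjusted p = 2.2e-07). The serine and one-carbon enzymes Phgdh (0.45), Shmt2 (0.46) and Mthfd2 (0.41) and the synthetase Aars (0.29) were higher below 2-fold, and Atf4 itself differed by 0.19 (adjusted p = 0.021).

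Of 18 amino acid transporters, 9 were higher with MEKi and 2 lower at any size (50% and 11.1%, against 14.5% and 14.4% of all genes). They included Slc7a5, the large neutral amino acid carrier, at 285, 300.5 and 307 against 180.3, 189.8 and 196 (0.66 ± 0.05, adjusted p = 2.4e-07). The glycine carrier Slc6a9 was the member past 2-fold, at 14.2, 16.3 and 17 against 5.59, 7.74 and 8.03 (1.16 ± 0.14, adjusted p = 1.7e-05), and 30.2% of its exon bases overlap genes on the other strand. The cationic carrier Slc7a1 was higher by 0.89 (adjusted p = 4.7e-06). Of 40 DNA replication and E2F genes 13 were higher and 1 lower (32.5% and 2.5%), with no member called and a median of 0.16. Such small shifts moved with the scaling. With a common FPKM sum 19 of these 40 were higher and 1 lower, with a median of 0.24, and the median of all genes was 0.072. Of 27 nucleotide and one-carbon genes 12 were higher and 1 lower (44.4% and 3.7%), with a median of 0.19, or 19 and 0 with a common FPKM sum. The BCL2 family of survival and death genes had 7 of 15 higher and 2 lower (46.7% and 13.3%), the same counts as with a common FPKM sum. Bbc3 (PUMA), a death-promoting member, was called at 8.6, 8.78 and 9.36 against 3.79, 2.3 and 4.25 (1.39 ± 0.17, adjusted p = 2.7e-05), and the protective Bcl2l1 was higher by 0.58 (adjusted p = 2.3e-06).

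**Figure D5:**
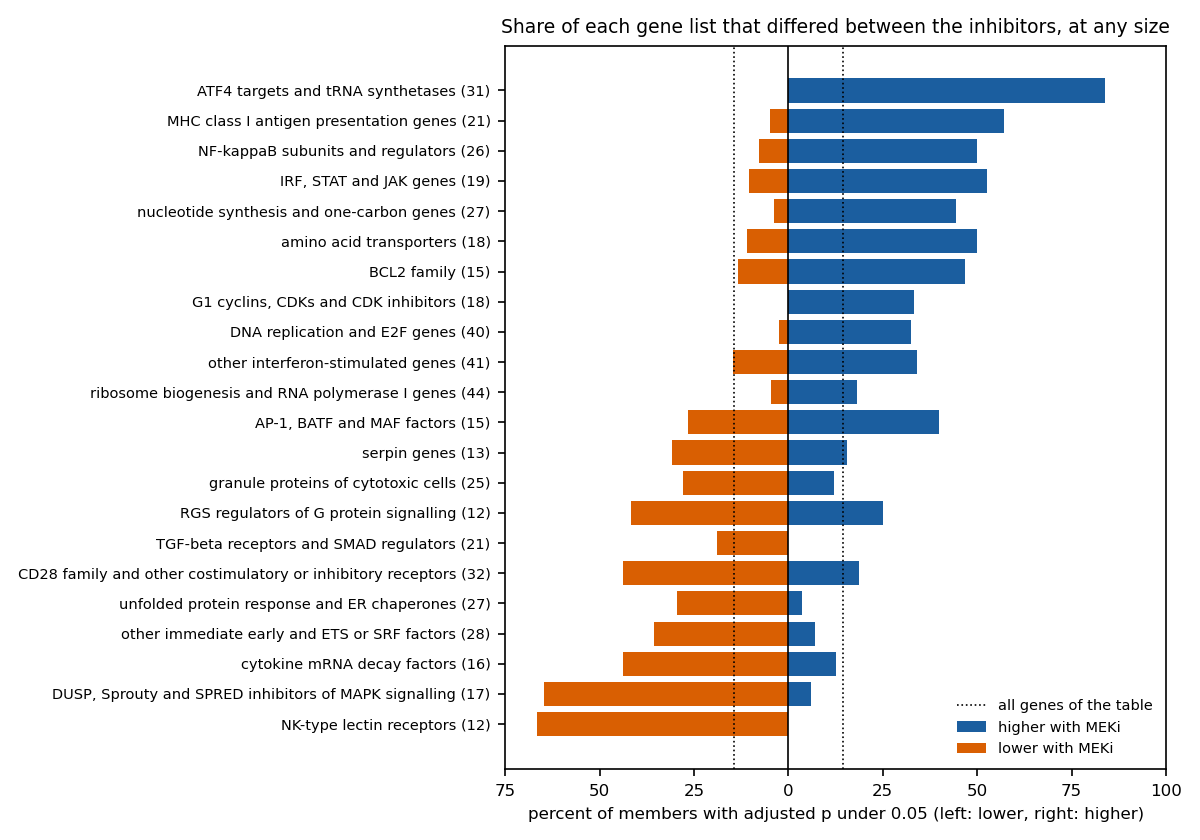
For 22 gene lists (number of members in the table in brackets), bars to the right give the percent of members higher with MEKi and bars to the left the percent lower, at an adjusted p under 0.05 and any size, with dotted lines for all genes at 14.5% and 14.4%. The lists drawn were chosen from the larger lists for the most uneven split in each direction. More balanced lists, such as the solute carriers with 21.7% higher and 20.3% lower, are left out. ATF4 targets reach 83.9% on the right, and NK-type lectin receptors reach 66.7% and DUSP, Sprouty and SPRED genes 64.7% on the left.

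Interferon-induced genes were mixed. Of 21 IRG and GBP GTPases, which attack pathogen vacuoles, 2 were called lower with MEKi and none higher. Iigp1 had 5.32, 4.48 and 6.27 FPKM with MEKi and 13, 12.4 and 17.4 with PI3Kdi (-1.39 ± 0.18, adjusted p = 4.6e-05), and Gbp2 had 50.1, 36.1 and 44.9 against 104, 74.4 and 92.4 (-1.04 ± 0.16, adjusted p = 1.6e-04). Peptide had lowered both, Iigp1 from 64 ± 6.51 to 4.74 ± 1.45, and PI3Kdi cultures stood above the TCR level while MEKi cultures stood at it. Gbp5 was higher with MEKi below 2-fold (0.94, adjusted p = 6.2e-04). Pyhin1, an interferon-induced nuclear protein, had 8.31, 8.76 and 9.98 against 24.1, 27 and 29.4 (-1.56 ± 0.09, adjusted p = 2.7e-08), and 33.7% of its 50-base words occur in other genes. Usp18, which ends interferon signalling, was instead higher with MEKi, at 12.7, 13.2 and 19.5 against 4.52, 6.78 and 8.47 (1.20, adjusted p = 0.0016). MHC class I genes had 12 of 21 members higher and 1 lower at any size (57.1% and 4.76%, against 14.5% and 14.4% of all genes). None passed 2-fold, and H2-Q6 led (0.91, adjusted p = 8.1e-08), a gene that shares 32% of its 50-base words with relatives.

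Ezr, Csrp1 and Plxnd1, which were chosen after their values were seen, and Lad1 were also called higher with MEKi. Ezr (ezrin), the membrane to actin linker, had 178, 185 and 193 FPKM with MEKi and 80.2, 84.4 and 84 with PI3Kdi (1.16 ± 0.07, adjusted p = 2.1e-08), with the PI3Kdi values at the TCR level of 81.7 ± 7.94 and the MEKi values near the unstimulated level of 169.5 ± 10.5. Csrp1, an actin-bundling LIM protein, had 84.5, 82.6 and 91.8 against 35.5, 37.5 and 37.6 (1.22 ± 0.06, adjusted p = 4.9e-09). Plxnd1, a semaphorin receptor, had 15.2, 16.3 and 15.3 with MEKi, near the TCR level of 16.1 ± 0.82, and 5.33, 4.68 and 5.15 with PI3Kdi (1.61 ± 0.09, adjusted p = 2.1e-08). Among the largest rises were also Serpinc1 (antithrombin), Asb2, Smpdl3b and 4933425H06Rik. Serpinc1, 34.4% of whose exon bases overlap a gene on the other strand, had 1.35, 0.97 and 1.47 FPKM with MEKi and 0, 0.05 and 0.20 with PI3Kdi (3.03, adjusted p = 4.0e-05). Asb2, a ubiquitin ligase adaptor, had 18.8, 7.3 and 8.82 against 3.49, 1.13 and 1.51 (2.49, adjusted p = 9.3e-04), and Smpdl3b, a lipid phosphodiesterase, had 2.17, 2.55 and 2.33 against 0.73, 0.42 and 0.35 (2.08, adjusted p = 1.0e-04). 4933425H06Rik had 1.68, 2.2 and 2.06 against 0.22, 0.11 and 0.38 (2.70, adjusted p = 2.3e-05). The 3 cultures of each drug did not overlap for these 4 genes, a separation that their choice as largest rises favours. Lad1, an anchoring filament protein, had 4.71, 4.12 and 3.69 against 0.77, 0.47 and 0.51 (2.66 ± 0.18, adjusted p = 8.8e-08), again with MEKi near the TCR level of 4.39 ± 0.54.

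The lineage genes of CD4 T cells went opposite ways, with Cd4 at 0.66, 0.41 and 0.28 with MEKi against 3.65, 1.96 and 3.2 with PI3Kdi (-2.48, adjusted p = 1.9e-05) and Zbtb7b (ThPOK), its regulator in thymocytes, at 9.38, 9.49 and 11 against 4.58, 3.31 and 3.88 (1.33, adjusted p = 1.9e-06), both at levels far under Cd8a, which had 430.3, 419 and 401 against 337, 326 and 311.

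Large housekeeping classes held no called gene in this comparison, against 3.09% of all genes. None of 75 cytosolic ribosomal protein genes, 75 mitochondrial ribosomal protein genes, 74 respiratory chain and ATP synthase genes, 37 proteasome subunits and 54 translation initiation factor genes passed 2-fold in either direction, and their median log2 differences ran from -0.11 to 0.002. The 34 sterol and fatty acid synthesis genes and the 34 mitosis and kinetochore genes likewise had none called. At any size, however, 7 of the sterol genes were higher and 9 lower (20.6% and 26.5%, against 14.5% and 14.4% of all genes). Of the mitosis genes 6 were higher and 2 lower (17.6% and 5.88%).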

How the data were processed

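RNA of 12 P14 CTL cultures, 3 in each of 4 groups, was sequenced by the authors as paired-end TruSeq stranded mRNA libraries. Per their methods and processing notes, the authors aligned reads to mm10 with STAR 2.4.2a, counted them per RefSeq gene with Subread 1.5.0 and filtered out genes of low expression. The authors deposited TMM-normalised FPKM made with edgeR. Whether counting used the strand is not given in the sources used here, and the read counts were not used here.

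The FPKM were taken as log2(FPKM + 0.1) and fitted with limma 3.58.1 in R 4.3.3 (1 mean per group, all 12 samples, eBayes with an intensity trend), with Benjamini-Hochberg adjustment over all 11022 genes. The procedure was tested on simulated data. A gene was called at an adjusted p under 0.05 and above 2-fold. No set test was run. Members and lists were chosen with earlier results of these data known. Genes named were the 12 largest rises and 12 largest falls with a mean of at least 1 FPKM in either group and the same sign in all 3 same-numbered pairs, up to 6 called members of each list or up to 3 that passed the test where none was called, and genes the study discussed. The 57 others checked for the text were chosen after their values were seen, and some genes are not reported here. Same-numbered samples deviated together from their group means (correlations of 0.1369, 0.147 and 0.1489 over 9899 genes). The numbers were taken as pairs only in choosing named genes and in the replicate block. The main fit had no pairing term, and it gave every adjusted p printed unless another setting is named. Positions are from GENCODE M21 (GRCm38) and promoters from RefSeq (GRCm38.p6). Shared sequence is the share of 50-base words of a gene's transcripts found in those of other genes. Other pseudocounts, a filter, 2 scalings, a 6-sample fit, no trend, the replicate block, other thresholds and leaving out each culture were tried. Depth is unknown, so no counting interval is given.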

Additional observations from a re-analysis of the deposited data

Results flagged for a closer look

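For 3 genes each inhibitor was more than 2-fold away from the TCR cultures, past the test, and in opposite directions. A gap between the drugs above 4-fold follows from that choice, so the difference was not tested independently and is given as a value. AI836003, an uncharacterised gene, had 3.49, 2.65 and 4.09 FPKM with MEKi, 0.84, 0.48 and 0.31 with TCR alone and 0.17, 0.13 and 0.22 with PI3Kdi. Its log2 difference was 2.51 in MEKi against TCR, -1.16 in PI3Kdi against TCR and 3.67 ± 0.29 between the drugs. 1810009J06Rik, a predicted trypsin-like gene that shares 81.5% of its 50-base words with other genes, had 9.63, 7.08 and 8.56 FPKM with MEKi, 3.83, 2.47 and 3.81 with TCR alone and 1.05, 0.94 and 0.40 with PI3Kdi. The corresponding differences were 1.31, -2.02 and 3.33 ± 0.27. Jag1, a Notch ligand, had 1.02, 1.08 and 1.17 FPKM with MEKi, 0.39, 0.50 and 0.32 with TCR alone and 0.11, 0.18 and 0.06 with PI3Kdi, with differences of 1.25, -1.24 and 2.49 ± 0.25. The MEKi, TCR and PI3Kdi cultures did not overlap for these 3 genes, and PI3Kdi levels were at or near 1 FPKM or lower.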

How the results depend on the processing

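The 153 genes higher with MEKi became 99 when only genes with a mean of at least 1 FPKM were fitted, 53 with a pseudocount of 1, 18 when limma's treat tested against a 2-fold change and 1595 with no fold threshold. The 188 lower genes became 97 with a pseudocount of 1, 46 with treat and 1590 with no fold threshold. Rescaling to a common FPKM sum gave 197 higher and 166 lower and moved the median of all genes to 0.072. The replicate block gave 159 and 190. Among the 248 genes checked it changed the side of the adjusted p only for Ccr7, Ctla4, Egr3 and Tnf. All of these differed by less than 2-fold, so none became a call. Leaving out 1 culture gave 138 to 172 higher and 188 to 200 lower. Where 1 culture was left out, 3 of 125 called genes (Ccl22, Cmpk2 and Tgfb3) lost the adjusted p and 21, with differences of up to 1.30 on the log2 scale (Tgfb3), fell to 2-fold or less. The share of higher genes that peptide had lowered went from 20.3% to 31% with a common FPKM sum and 44.7% with no fold threshold, above the shares that peptide had raised (26.9% and 35.5%), and that of lower genes was 26% with no fold threshold. These settings changed the peptide comparison too, and the all-gene shares under them are not given here. The all-gene shares of the main rule are therefore not their baseline. Of the 248 genes, 210 kept their direction and their side of the adjusted p under every alternative that was checked gene by gene. Treat and the setting with no fold threshold were not checked in this way. The filter at a mean of 1 FPKM covered 231 of the 248. Ccl4 turned to 0.10 under quantile normalisation. Of 122 list counts, most of them at 0 or 1, 13 stayed within 1.5 times under every alternative, and with a common FPKM sum the IRG and GBP genes had 1 called in each direction. The cause of these shifts was not tested. The missing read counts limit what can be said of genes below 1 FPKM.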

Other observations

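Among 31 transcription factors of effector and memory fate, 3 were called higher with MEKi and 1 lower, all at low levels. Ahr, the receptor for aromatic ligands, had 4.76, 4.72 and 3.92 FPKM with MEKi and 2.09, 2.15 and 1.59 with PI3Kdi (1.17 ± 0.19, adjusted p = 3.3e-04), and Hic1, a zinc finger repressor, had 2, 1.09 and 1.7 against 0.71, 0.31 and 0.42 (1.57 ± 0.31, adjusted p = 0.0017). Tox, a factor of exhausted CD8+ T cells, had 0.09, 0.11 and 0 against 0.32, 0.50 and 0.56 (-1.79 ± 0.41, adjusted p = 0.0044). The MEKi and PI3Kdi cultures did not overlap for these 3 genes, which their choice as called genes favours. Of 18 integrin subunits 1 was called in each direction. Itga4, a chain of the receptor for VCAM-1, had 2.77, 2.24 and 2.94 against 1.06, 1.2 and 1.41 (1.05 ± 0.21, adjusted p = 0.0013), and Itga3, a laminin receptor chain that peptide raised, had 4.31, 4.31 and 5.41 against 11.1, 9.22 and 12.3 (-1.20 ± 0.15, adjusted p = 3.5e-05).

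A few metabolic genes were called. The share called was 3.12% of glycolysis and hypoxia genes, 2.5% of lysosome and autophagy genes and 3.23% of PI3K, AKT and mTOR genes. Over all genes it was 3.09%, so these counts lay near the rate of the whole table. It was 6.99% of solute carriers and 8.33% of 12 polyamine genes. P4ha2, a collagen prolyl hydroxylase, was the single called member of 32 glycolysis and hypoxia genes, with 7.03, 6.38 and 7.23 FPKM with MEKi and 2.6, 1.81 and 1.88 with PI3Kdi (1.68 ± 0.17, adjusted p = 3.8e-06). In the same list Hk2, a hexokinase, was higher with MEKi (0.33, adjusted p = 2.8e-04) and the glucose carrier Slc2a1 lower (-0.50, adjusted p = 4.3e-05), both below 2-fold. Smox, which oxidises spermine, had 17.5, 12.3 and 14.6 against 35.7, 28.9 and 29.6 (-1.09 ± 0.14, adjusted p = 5.2e-05), and Slc29a2, a nucleoside carrier, had 8.31, 8.87 and 9.6 against 3.6, 3.63 and 4.08 (1.22 ± 0.12, adjusted p = 2.8e-06). Of 143 solute carrier genes 5 were called in each direction. Atp6v0d2, a subunit of the vacuolar proton pump, had 1.06, 0.63 and 0.83 against 4.87, 3.51 and 5.01 (-2.29 ± 0.34, adjusted p = 1.4e-04) and was the single called member of 40 lysosome and autophagy genes. Pik3r6, a regulatory subunit of PI3Kγ, had 4.58, 3.49 and 3.85 against 1.92, 1.5 and 1.49 (1.23 ± 0.16, adjusted p = 3.4e-05) and was the single called member of 31 PI3K, AKT and mTOR pathway genes.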
